A study of Mus musculus with 14 samples.

Results

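Rejecting cardiac allografts were compared with cardiac isografts 7 days after transplantation, across all genes on the MG-U74Av2 mouse array. The isografts were C57/BL6 hearts in C57/BL6 recipients (3 arrays). The rejecting allografts were Balb/c hearts in C57/BL6 recipients, with no treatment in their labels (3 arrays). Another group served for 1 further test: Balb/c hearts in C57/BL6 recipients given mAb against the costimulatory ligands CD80 and CD86, called tolerizing in the labels (3 arrays). Each array held total RNA of a transplanted heart, so the cells that had entered the graft were measured together with the heart's own. The ages of the animals are not given, and neither is whether the hearts of a group came from separate operations, so p-values measure the spread between these samples, which may in part be technical. The donor heart was C57/BL6 in every isograft and Balb/c in every rejecting graft, so rejection and the strain of the heart cannot be told apart in this comparison. The genes described are the 9659 of 12422 non-control probe sets (77.8%) with a signal above 11 on at least 3 of the 6 arrays. Of these, 7706 were above 11 on all 6 arrays and 534 on exactly 3, while 524 probe sets above it on exactly 2 were left out. Just inside that limit lay the probe sets for Apoc4 and Arid3a, which passed it on exactly 3 arrays, the lowest of them at 11.1, and just outside it F8a and a dim probe set for Ctsb, at 11.

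In acute rejection, recipient T cells recognise the donor's MHC molecules, enter the graft and kill its cells with granule enzymes such as perforin and granzymes. Their interferon-gamma acts on graft and infiltrating cells and raises chemokines, GTPases and the machinery of antigen presentation, and macrophages make up much of the infiltrate. The working heart muscle draws most of its energy from fatty acids, burnt in mitochondria, and keeps the proteins of the sarcomere at very high mRNA levels. In RNA of whole hearts, fewer cells of a type and less RNA per cell cannot be told apart.

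Of the 9659 probe sets, 1836 (19%) passed the test at an adjusted p under 0.05, 883 higher (9.14%) and 953 lower (9.87%) in the rejecting hearts. The median difference over all 9659 was 0.04 on the log2 scale. The groups did not overlap in 3114 probe sets (32.2%), 1566 higher (16.2%) and 1548 lower (16%), and in 1809 of the 1836 called. Differences above 1 on the log2 scale were called in 665 probe sets and differences below -1 in 691; beyond 2 and -2 the numbers were 177 and 195. Counted by gene, with the brightest probe set standing for each of 8251 genes, 666 were higher (8.07%) and 782 lower (9.48%), 17.5% in all, and these percentages are the background for the gene groups. Of the 1448 genes called, 818 (376 higher, 442 lower) kept the call whichever 1 of the 6 arrays was left out. Called genes not among these are named with the arrays they depended on. Signals are given in the order of replicates 1, 2 and 3, as deposited. Signals under 11 counted as 11 in the tests and folds, which understates folds of genes with some arrays there; where a whole group lay there, the fold is a lower bound and is written "at least".

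**Figure D1:**
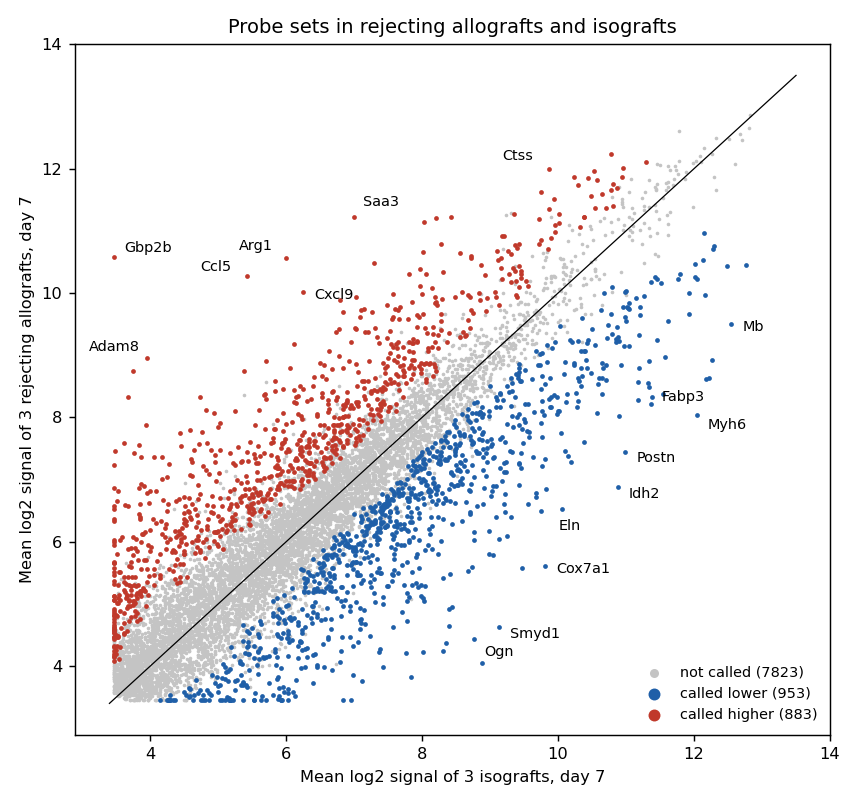
Mean log2 signal of each of the 9659 probe sets in the 3 isografts (horizontal axis) and the 3 rejecting allografts (vertical axis) at day 7; red points were called higher (883), blue points lower (953), and the diagonal marks equal means. Probe sets on the lowest row or the leftmost column lay at the floor of 11 on every array of that group; Gbp2b stands highest above the floor among genes that every isograft held there.

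The labels were checked against fixed marker genes. All 7 cardiomyocyte markers were on the array and clear in every isograft, where their signals summed to 38707.5, 32802.4 and 25558.1. The sums were 3412.4, 4793.0 and 16151.8 in the rejecting hearts, and all 7 markers fell. H2-Ea, an MHC class II alpha chain that C57/BL6 mice do not make, had signals of 3.7, 2.5 and 8.1 in the isografts and 48.1, 50.4 and 217 in the rejecting hearts. It was at least 7.34-fold higher, a log2 difference of 2.88 (SE 0.43, adjusted p = 0.0007976); the fold was 4.48 without rejecting heart 3. All 3 Balb/c hearts were thus above all 3 C57/BL6 hearts. With the floor raised to the median of all values, the adjusted p of H2-Ea was 0.1214. Median signals lay between 38.85 and 45.65, and 71.97% to 78.80% of probe sets were above 11 on an array. The ratio of the 3' to the 5' probe set of beta-actin, which rises as RNA is degraded, was 1.52 to 1.98 in the isografts and 1.26 to 1.61 in the rejecting hearts. With that ratio as a covariate 1452 of the 10395 probe sets tested were called in place of 1842 (17.7%).

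T cell genes were the group with the highest median difference, and the genes of killer cells came next. Of 27 T cell genes on the array, 24 were among the 9659 probe sets described. Of the 27, 15 rose and 1, Cd6, fell, with a median log2 difference of 1.71, against 0.00 over all 8251 genes. Of 24 genes of cytotoxic effector and NK cells (17 among the 9659 probe sets) 13 rose and none fell, with a median of 1.68. Cd8b1, the beta chain of the coreceptor of killer T cells, had signals of 4.5, 3.3 and 24.5 in the isografts and 77.2, 172 and 509 in the rejecting hearts. It was 13.2-fold higher, a log2 difference of 3.72 (SE 0.66, adjusted p = 0.001965). Its fold was 20.6 without rejecting heart 1 and 8.01 without rejecting heart 3. Cd3d, a chain of the T cell receptor complex, was at 2.9, 4.2 and 24.8 in the isografts and 33.8, 72.4 and 242 in the rejecting hearts. It was 5.82-fold higher, a log2 difference of 2.54 (SE 0.59, adjusted p = 0.008657), and its fold was 9.18 without rejecting heart 1 and 3.43 without rejecting heart 3. Both genes were lowest in rejecting heart 1 and highest in rejecting heart 3, with all 3 above every isograft. Zap70, the kinase that carries the receptor's signal, was at 9.4, 15.9 and 106 in the isografts and 264, 381 and 323 in the rejecting hearts. It was 12-fold higher, a log2 difference of 3.59 (SE 0.74, adjusted p = 0.004647). Isograft 3 stood at 106 against 9.4 and 15.9 in the other isografts, and the fold was 7.76 without isograft 1 and 24.1 without isograft 3. The adaptor Lcp2, used by T cells and myeloid cells, was 7.15-fold higher, a log2 difference of 2.84 (SE 0.45, adjusted p = 0.001127). For Cd6, a T cell surface receptor, 2 probe sets disagreed: the brighter, counted above, was at 179, 214 and 176 in the isografts and 39.4, 32.6 and 54.9 in the rejecting hearts. It was 4.56-fold lower, a log2 difference of -2.19 (SE 0.33, adjusted p = 0.0008151). The dimmer was not called, at 7.0, 7.6 and 23.1 in the isografts and 7.0, 36.5 and 121.2 in the rejecting hearts (log2 difference 1.37, adjusted p = 0.1898). In a fit of the 2 groups alone, with fewer residual degrees of freedom, the adjusted p of Cd3d was 0.08361. With the floor at the median of all values it was 0.1015.

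Among the killing molecules, granzyme B (Gzmb), a granule protease that starts apoptosis in target cells, had signals of 41.4, 49.6 and 70.5 in the isografts and 199.6, 273 and 2034 in the rejecting hearts. It was 9.15-fold higher, a log2 difference of 3.19 (SE 0.63, adjusted p = 0.003636). Rejecting heart 3 carried 2034 against 199.6 and 273 in the other rejecting hearts, and the fold was 14.2 without rejecting heart 1 and 4.44 without rejecting heart 3. Perforin (Prf1), which opens the target's membrane, was at 15.6, 7.4 and 17.9 in the isografts and 41.7, 46.2 and 134 in the rejecting hearts. It was 4.39-fold higher, a log2 difference of 2.13 (SE 0.44, adjusted p = 0.004753). Klrd1, a chain of the CD94 receptor of NK and killer T cells, was 9.34-fold higher, a log2 difference of 3.22 (SE 0.53, adjusted p = 0.001334). Interferon-gamma itself (Ifng) was at 0.9, 0.4 and 1.7 in the isografts, all under the floor, and at 17.9, 35.2 and 112 in the rejecting hearts, at least 3.75-fold higher, a log2 difference of 1.91 (SE 0.46, adjusted p = 0.01117), with a fold of 5.7 without rejecting heart 1 and 2.28 without rejecting heart 3. Inhibitory receptors of the T cell group rose as well. Ctla4, which competes with CD28 for CD80 and CD86, was at 1.4, 2.7 and 3.3 in the isografts and 41.4, 45.6 and 299.6 in the rejecting hearts. It was at least 7.52-fold higher, a log2 difference of 2.91 (SE 0.62, adjusted p = 0.005501), and its fold was 3.95 without rejecting heart 3. Pdcd1, the PD-1 receptor, was at 8, 5 and 6.9 in the isografts and 55.9, 68.5 and 224 in the rejecting hearts. It was at least 8.64-fold higher, a log2 difference of 3.11 (SE 0.5, adjusted p = 0.0012), and its fold was 5.63 without rejecting heart 3. For these 6 genes rejecting heart 3 was the highest array, and no rejecting heart overlapped the isografts. Gzmb, Ifng and Ctla4 lost the call with the 2 groups fitted alone (adjusted p = 0.06234, 0.1132 and 0.0595). Prf1 and Ctla4 lost it with the floor at the median of all values (0.1629 and 0.1928). Ifng also lost it with beta-actin's ratio in the model (0.06031) and within the second accession run (0.06078). Of the 5 fixed T cell markers 4 rose, and their summed signals were 47.6, 62.4 and 172.8 in the isografts and 270.1, 541.4 and 1175.8 in the rejecting hearts. B cell genes moved less: 3 of 21 rose and 1 fell, and without isograft 2 or rejecting heart 2 only 1 rose. None fell without isograft 1 or rejecting heart 2. None of the 3 fixed B cell markers on the array was called. Ncr1, a defining NK cell receptor, lay at the floor on all 6 arrays.

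Interferon-induced genes rose in 17 of 33 cases and fell in none, with a median log2 difference of 1.01. Without rejecting heart 3, 1 of them fell. Gbp2b, a guanylate-binding GTPase, had the smallest p of the comparison, with signals of 1.3, 1.1 and 1 in the isografts and 933, 1705 and 2275 in the rejecting hearts. It was at least 139.6-fold higher, a log2 difference of 7.12 (SE 0.24, adjusted p = 1.354e-09). Its 3 isografts lay at the bottom of the scale. The 3 tolerizing hearts, also Balb/c, had 1276, 1309 and 1374, so that all 6 Balb/c hearts were high, and strain and group cannot be told apart for it. Igtp and Irgm2, immunity-related GTPases that act at the vacuoles of intracellular parasites, were at 106, 164 and 219.9 in the isografts and 931, 1384 and 2324 in the rejecting hearts for Igtp and at 176, 259.5 and 269 in the isografts and 643, 965 and 1277 in the rejecting hearts for Irgm2. Igtp was 9.22-fold higher, a log2 difference of 3.2 (SE 0.32, adjusted p = 5.411e-05), and Irgm2 was 4.01-fold higher, a log2 difference of 2 (SE 0.25, adjusted p = 0.0002305). Irf1, a transcription factor that is itself induced by interferon-gamma, was at 164, 180.4 and 277 in the isografts and 526, 799 and 1065 in the rejecting hearts. It was 3.8-fold higher, a log2 difference of 1.92 (SE 0.26, adjusted p = 0.0004357). In each of these 4 genes rejecting heart 3 was the highest array, and the lowest rejecting heart was above all isografts. Cxcl9, the chemokine that draws CXCR3-bearing T cells, was 13.6-fold higher, a log2 difference of 3.77 (SE 0.48, adjusted p = 0.000301), and its fold was 20.5 without isograft 3.

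The promoters of these genes show where the letters of an interferon response element lie. Promoter sequences of RefSeq (assembly GRCm38.p6, of a C57BL/6 mouse and not of the Balb/c hearts) were matched by symbol for 6576 of the 8251 genes, and the 250 bases before the start were searched on both strands. The motifs were the interferon-stimulated response element or ISRE (GAAA, any 2 bases, GAAA) and CCAAT, the box bound by the factor NF-Y. Of 27 promoters of interferon-induced genes 44.4% held ISRE letters, against 2.87% of all 6576. They stood in 8 of the 15 interferon-induced genes called higher and in 4 of the 12 not called. Below are the 250 bases before the start of Gbp2b, at chr3:142594597-142594846, of Igtp, at chr11:58199306-58199555, and of Irgm2, at chr11:58214727-58214976, all on the plus strand. They are shown because the 3 genes rose in every rejecting heart, and Igtp and Irgm2 carry the same ISRE letters. Capitals mark ISRE and CCAAT letters on either strand.
Gbp2b: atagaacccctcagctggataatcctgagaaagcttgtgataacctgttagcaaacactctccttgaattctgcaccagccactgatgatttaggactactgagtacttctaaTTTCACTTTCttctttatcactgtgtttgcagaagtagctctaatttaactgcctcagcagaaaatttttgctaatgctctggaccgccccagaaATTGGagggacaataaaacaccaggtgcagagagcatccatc
Igtp: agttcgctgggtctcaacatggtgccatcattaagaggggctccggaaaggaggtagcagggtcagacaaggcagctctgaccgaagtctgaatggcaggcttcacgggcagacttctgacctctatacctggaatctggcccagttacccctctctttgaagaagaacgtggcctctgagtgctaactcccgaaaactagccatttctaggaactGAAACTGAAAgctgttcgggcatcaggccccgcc
Irgm2: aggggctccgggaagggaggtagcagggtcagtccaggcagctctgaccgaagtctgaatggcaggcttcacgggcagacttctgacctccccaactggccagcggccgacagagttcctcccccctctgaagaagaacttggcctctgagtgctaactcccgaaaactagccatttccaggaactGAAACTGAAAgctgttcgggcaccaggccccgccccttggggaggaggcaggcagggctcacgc
In Gbp2b the capitals are an ISRE on the opposite strand, TTTCACTTTC, from 137 to 128 bases before the start, and CCAAT on the opposite strand from 42 to 38 bases. In Igtp an ISRE, GAAACTGAAA, lies from 34 to 25 bases before the start. Irgm2 has the same ISRE letters from 64 to 55 bases before the start. A match of letters is a description of the sequence, not evidence of binding in these hearts.

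Genes of antigen presentation rose with them. Of 18 MHC class I genes and their peptide suppliers 11 rose and none fell (median 1.15), and of 14 class II genes 11 rose and none fell (median 1.63). Psmb8 and Psmb9, the proteolytic subunits that turn the proteasome into the immunoproteasome, were at 214, 255 and 341 in the isografts and 911, 1271 and 1774 in the rejecting hearts for Psmb8 and at 71.5, 90.7 and 150 in the isografts and 358, 509 and 857 in the rejecting hearts for Psmb9. Psmb8 was 4.8-fold higher, a log2 difference of 2.26 (SE 0.25, adjusted p = 0.000115), and Psmb9 was 5.43-fold higher, a log2 difference of 2.44 (SE 0.31, adjusted p = 0.0002989). Tap1 and Tap2, the subunits of the pump that carries peptides into the endoplasmic reticulum, were 4.64-fold higher, a log2 difference of 2.21 (SE 0.28, adjusted p = 0.0003137) and 3.13-fold higher, a log2 difference of 1.65 (SE 0.26, adjusted p = 0.001093). The class I heavy chains H2-K1 and H2-D1 were bright in the isografts already and differed less, 2.08-fold higher, a log2 difference of 1.05 (SE 0.21, adjusted p = 0.003562) and 2.36-fold higher, a log2 difference of 1.24 (SE 0.21, adjusted p = 0.001621). The strains carry different alleles of both genes, and how well each probe set binds either allele was not tested. Tap1 and Psmb9 are read in opposite directions from a shared stretch of 225 bases, chr17:34187331-34187555, printed here on the strand of Tap1 because both genes rose. Its capitals mark the only match to either motif found there, a CCAAT box.
Tap1-Psmb9: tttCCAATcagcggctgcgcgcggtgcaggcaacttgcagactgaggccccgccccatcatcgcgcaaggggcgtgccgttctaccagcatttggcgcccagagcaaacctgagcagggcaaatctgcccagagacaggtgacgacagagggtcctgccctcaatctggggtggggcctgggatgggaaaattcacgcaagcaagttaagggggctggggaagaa
CCAAT stood in 78.6% of 14 class I presentation promoters and in 35.9% of all 6576. Other groups had it nearly as often, with 73.5% of 34 protein folding promoters and 70% of 10 of class II presentation. By contrast with Psmb8 and Psmb9, the constitutive proteasome had 2 of 32 genes higher and 1 lower, against 8.07% and 9.48% of all genes; 4 were higher without rejecting heart 1, 3 were lower without rejecting heart 3, and none was lower without isograft 1, isograft 2, rejecting heart 1 or rejecting heart 2.

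Of the 11 class II genes that rose, H2-Ea is given above and was highest in rejecting heart 3. C57/BL6 mice do not make it, so its rise cannot be told apart from the strain of the heart. Against the tolerizing hearts, also Balb/c, H2-Ea was called lower by limma. That call was lost without rejecting heart 2, tolerizing heart 2 or tolerizing heart 3 (log2 difference -2.18, -2.56 and -2.4, adjusted p = 0.06462, 0.06126 and 0.05843). H2-Ab1, the beta chain of the class II molecule I-A, was at 269, 411 and 373 in the isografts and 2188, 2963 and 2153 in the rejecting hearts. It was 6.97-fold higher, a log2 difference of 2.8 (SE 0.3, adjusted p = 9.617e-05). H2-DMb1, which helps load peptides onto class II molecules, was at 138, 139.9 and 131 in the isografts and 684, 877 and 797 in the rejecting hearts. It was 5.74-fold higher, a log2 difference of 2.52 (SE 0.34, adjusted p = 0.0004357). The invariant chain Cd74 was 2.73-fold higher, a log2 difference of 1.45 (SE 0.28, adjusted p = 0.003104), and Ifi30, a lysosomal thiol reductase that prepares antigens, was 8.39-fold higher, a log2 difference of 3.07 (SE 0.37, adjusted p = 0.0002285). The cathepsin that trims the invariant chain, Ctss, was at 1052, 846 and 923 in the isografts and 4793, 4092 and 3493 in the rejecting hearts. It was 4.37-fold higher, a log2 difference of 2.13 (SE 0.32, adjusted p = 0.0007816). Rejecting heart 1 was its highest array. The groups did not overlap in any of these 5 genes.

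Macrophage and monocyte genes rose in 25 of 34 cases and fell in 1, with a median of 1.55. The medians of rejecting hearts 1, 2 and 3 were 1.71, 1.84 and 1.58. Rejecting heart 3 was the lowest rejecting heart in 20 of the 34 genes, against 3325 of all 8251. Clec4d, a lectin receptor for mycobacterial glycolipid, was at 14.3, 13.1 and 7.4 in the isografts and 849, 539 and 71.1 in the rejecting hearts. It was 25.1-fold higher, a log2 difference of 4.65 (SE 0.67, adjusted p = 0.0006457), and its fold was 15.4 without rejecting heart 1 and 53.1 without rejecting heart 3. Arg1, the arginase of alternatively activated and tissue-repair macrophages, was at 29.9, 109.6 and 77.6 in the isografts and 3792, 2972 and 314 in the rejecting hearts. It was 24.1-fold higher, a log2 difference of 4.59 (SE 0.87, adjusted p = 0.003056), and its fold was 15.2 without rejecting heart 1 and 53 without rejecting heart 3. In both genes rejecting heart 3 was the lowest of the group yet above every isograft. Adam8, a membrane protease of activated myeloid cells counted here among the matrix proteases, was lowest in heart 3 as well, at 11.9, 9.5 and 28.2 in the isografts and 779.7, 803 and 194 in the rejecting hearts. It was 32.1-fold higher, a log2 difference of 5 (SE 0.67, adjusted p = 0.0004357). Its fold was 51.2 without rejecting heart 3. Rises with less spread were found elsewhere in the list. Itgam, the alpha chain of the integrin Mac-1, was at 14.9, 28.5 and 13.8 in the isografts and 138, 143 and 108 in the rejecting hearts. It was 7.13-fold higher, a log2 difference of 2.83 (SE 0.49, adjusted p = 0.001705). The signalling adaptor Fcer1g was at 8.6, 12.5 and 5.4 in the isografts and 108, 121 and 109 in the rejecting hearts. It was 9.82-fold higher, a log2 difference of 3.29 (SE 0.58, adjusted p = 0.001854). The related adaptor Tyrobp rose 4.24-fold, the inhibitory receptor Pirb 4.38-fold and galectin-3 (Lgals3) 7.57-fold (adjusted p = 0.003177, 0.000162 and 0.0004576). The gene of the list that fell was Mrc1, the mannose receptor of resident macrophages, at 90.7, 127 and 148 in the isografts and 51.1, 41.2 and 23.3 in the rejecting hearts. It was 3.26-fold lower, a log2 difference of -1.71 (SE 0.39, adjusted p = 0.007929). General macrophage markers moved less, Csf1r by 1.61-fold, adjusted p = 0.02325 and Lyz2 by 2.15-fold, adjusted p = 0.02216, with calls that depended on single arrays: without 1 array the adjusted p of Csf1r reached 0.05823 without isograft 1, 0.06712 without isograft 2, 0.05936 without isograft 3 and 0.08679 without rejecting heart 2, and that of Lyz2 0.07998 without isograft 1, 0.07225 without isograft 2, 0.07317 without rejecting heart 1 and 0.06099 without rejecting heart 2. With beta-actin's ratio in the model the values were 0.07497 and 0.06597.

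Neutrophil genes differed among the rejecting hearts, with list medians of 1.69, 0.62 and 0.00 in hearts 1, 2 and 3, and 4 of 19 were called higher. S100a8, a calprotectin subunit, was at 141, 224 and 68.6 in the isografts and 1255, 637 and 404 in the rejecting hearts. It was 5.3-fold higher, a log2 difference of 2.41 (SE 0.54, adjusted p = 0.007732). The 4 fixed neutrophil markers summed to 320.4, 461.4 and 175.2 in the isografts and to 2756.2, 1142.3 and 697.7 in the rejecting hearts. Saa3, an acute-phase protein of macrophages and other cells, was among the largest rises at 174, 1056 and 11.5 in the isografts and 4009.7, 1973 and 1739.6 in the rejecting hearts, 18.7-fold higher, a log2 difference of 4.22 (SE 1.21, adjusted p = 0.02706), but its isografts spanned a wide range. Its fold was 53.6 without isograft 2 and 5.59 without isograft 3, and its adjusted p was 0.05823 without isograft 1, 0.08269 without isograft 3, 0.09305 without rejecting heart 1 and 0.06308 without rejecting heart 2. It was 0.1398 with the 2 groups alone, 0.1404 within the second accession run and 0.08105 with no filter on low signals.

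Soluble mediators are to be read against 8.07% of all genes higher and 9.48% lower. Of 44 cytokines and growth factors 6 rose and 3 fell (median 0.07). Of 24 chemokines 7 rose and none fell (median 0.81), and of 18 chemokine receptors 2 rose. The counts for cytokines and for receptors lie near the shares of all genes. Without isograft 1 only 3 chemokines were called. Il1b, a product of activated macrophages, was at 20.1, 33.7 and 33.3 in the isografts and 197, 243 and 449.5 in the rejecting hearts. It was 9.85-fold higher, a log2 difference of 3.3 (SE 0.57, adjusted p = 0.001794). Its natural antagonist Il1rn was at 20.1, 60.5 and 24 in the isografts and 202, 375 and 255 in the rejecting hearts. It was 8.72-fold higher, a log2 difference of 3.12 (SE 0.47, adjusted p = 0.0008367). Il6 was at 13.6, 7.1 and 22.9 in the isografts and 74.7, 107 and 209.7 in the rejecting hearts. It was 7.88-fold higher, a log2 difference of 2.98 (SE 0.57, adjusted p = 0.003134), with rejecting heart 3 highest. Ccl3, which attracts monocytes and T cells, was 5.6-fold higher, a log2 difference of 2.49 (SE 0.4, adjusted p = 0.001128), and the neutrophil attractant Cxcl2 was at 18.5, 32.1 and 12.6 in the isografts and 70.9, 83 and 49.2 in the rejecting hearts. It was 3.38-fold higher, a log2 difference of 1.76 (SE 0.41, adjusted p = 0.00888). Ccl2 did not pass the test, with 92.9, 138 and 100.5 in the isografts and 165, 292 and 999 in the rejecting hearts and an adjusted p of 0.1174; rejecting heart 3 stood apart from its group. The receptors that rose were Ccr1 and Cxcr4. Ccr1, a receptor for CCL3 among others, was at 59.6, 65 and 26.1 in the isografts and 217, 288 and 206 in the rejecting hearts. It was 5.03-fold higher, a log2 difference of 2.33 (SE 0.53, adjusted p = 0.00792). Cxcr4, the receptor for the chemokine CXCL12, was at 20, 8.2 and 28.9 in the isografts and 67.7, 87.8 and 70.2 in the rejecting hearts. It was 4.03-fold higher, a log2 difference of 2.01 (SE 0.42, adjusted p = 0.005068). Ptgs2, the inducible cyclooxygenase, was at 3.3, 17.4 and 15.7 in the isografts and 94.7, 99.4 and 97.8 in the rejecting hearts. It was 6.74-fold higher, a log2 difference of 2.75 (SE 0.41, adjusted p = 0.0007976), with hardly any spread among the rejecting hearts. Lysosomal and phagosomal genes rose in 14 of 33 cases and fell in 2, but rose in 9 without isograft 1, isograft 2 or rejecting heart 2. Those that fell numbered 1 without isograft 1 or rejecting heart 2 and 3 without isograft 3.

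Cell division genes rose in 30 of 62 cases and fell in none, with a median of 1.10. Aurka, a kinase of the mitotic spindle, was at 16.2, 8.8 and 12.5 in the isografts and 48.6, 42.3 and 55.7 in the rejecting hearts. It was 3.72-fold higher, a log2 difference of 1.89 (SE 0.3, adjusted p = 0.001037). Birc5 (survivin), a partner of the kinase Aurkb at the centromere, was at 20.9, 23.6 and 26.3 in the isografts and 100.5, 84.2 and 87.9 in the rejecting hearts. It was 3.86-fold higher, a log2 difference of 1.95 (SE 0.37, adjusted p = 0.003203). Rrm2, the subunit of ribonucleotide reductase that limits DNA precursors, was 3.68-fold higher, a log2 difference of 1.88 (SE 0.31, adjusted p = 0.001228), Top2a, which untangles replicated DNA, 4.8-fold higher, a log2 difference of 2.26 (SE 0.47, adjusted p = 0.004647), and the replication helicase subunit Mcm5 3.69-fold higher, a log2 difference of 1.88 (SE 0.38, adjusted p = 0.004136). The groups did not overlap in any of these 5. Aurka had an adjusted p of 0.0993 with the floor at the median of all values. The probe set chosen for Mki67 was not called, at 58.2, 107 and 64.9 in the isografts and 68.9, 62.4 and 51.9 in the rejecting hearts, and the inhibitor of cell division Cdkn1a (p21) rose too, 2.74-fold higher, a log2 difference of 1.46 (SE 0.34, adjusted p = 0.00918). Of 25 genes of nucleotide and one-carbon metabolism 10 rose and none fell (median 0.54). Mthfd2, the mitochondrial folate enzyme of dividing cells, was at 108, 71.7 and 95.8 in the isografts and 494, 438 and 476 in the rejecting hearts. It was 5.18-fold higher, a log2 difference of 2.37 (SE 0.22, adjusted p = 4.132e-05). Psat1, an enzyme of serine synthesis, was at 33.4, 37.9 and 40.6 in the isografts and 114, 104 and 311 in the rejecting hearts. It was 4.15-fold higher, a log2 difference of 2.05 (SE 0.44, adjusted p = 0.005414), highest in rejecting heart 3. The letters TTTGAA, the cell cycle homology region, stood in 25.5% of 51 promoters of cell division genes and in 11.6% of all 6576, and CCAAT in 66.7% and 35.9%. Neither was particular to cell division genes. TTTGAA stood in 33.3% of 21 cytotoxic and NK cell promoters and 31.2% of 16 of chemokine receptors. CCAAT stood in 73.5% of 34 protein folding promoters and 69.2% of 13 of the circadian clock.

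Of 39 genes of the actin cytoskeleton of non-muscle cells 20 rose and 2 fell (median 0.80), but 11 rose without isograft 1 and 1 fell without rejecting heart 1 or 2. Capg, an actin capping protein of macrophages, was at 105, 74 and 108 in the isografts and 433, 506 and 447 in the rejecting hearts. It was 4.89-fold higher, a log2 difference of 2.29 (SE 0.25, adjusted p = 0.000115). Coro1a, a coronin of leukocytes, was at 163, 203 and 172 in the isografts and 447, 519.5 and 1025 in the rejecting hearts. It was 3.48-fold higher, a log2 difference of 1.8 (SE 0.34, adjusted p = 0.002762). Gsn (gelsolin), which severs actin filaments and is plentiful in heart and stroma, fell instead, at 983, 2881 and 1266 in the isografts and 488, 456 and 228 in the rejecting hearts. It was 4.13-fold lower, a log2 difference of -2.05 (SE 0.4, adjusted p = 0.003618). Within the second accession run its adjusted p was 0.07118.

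The genes of the sarcomere fell in 17 of 29 cases and rose in none, with a median log2 difference of -1.58. Without rejecting heart 3, 2 of them were called higher. Against the isograft mean, Acta1 was at 1.71 on the log2 scale in rejecting hearts 1 and 2 and at 2.54 in heart 3. Tpm1 was at 1.89 and -0.14, and neither gene was called with all arrays. Myh6, the adult cardiac myosin heavy chain, was at 4297, 4936 and 3487 in the isografts and 109, 76.3 and 2212 in the rejecting hearts. It was 15.9-fold lower, a log2 difference of -3.99 (SE 0.88, adjusted p = 0.006722). Rejecting hearts 1 and 2 held a small remnant, while rejecting heart 3 was at 2212, still under every isograft, and the fold was 10.2 without rejecting heart 1, 8.56 without rejecting heart 2 and 46.1 without rejecting heart 3. Tnni3, the cardiac troponin I used as a blood marker of heart injury, was at 5272, 5737 and 3923 in the isografts and 165, 304 and 2260.3 in the rejecting hearts. It was 10.2-fold lower, a log2 difference of -3.34 (SE 0.67, adjusted p = 0.004126), and its fold was 5.92 without rejecting heart 1 and 21.9 without rejecting heart 3. Myl3, the essential light chain of ventricular myosin, was at 5757, 4691 and 4034 in the isografts and 133, 215 and 2225 in the rejecting hearts. It was 12-fold lower, a log2 difference of -3.58 (SE 0.73, adjusted p = 0.004534), and its fold was 6.91 without rejecting heart 1 and 28.3 without rejecting heart 3. Other parts of the same filaments lost less: Tnnt2 (troponin T) was at 5731, 4803 and 4617 in the isografts and 1069, 1633 and 2991 in the rejecting hearts. It was 2.9-fold lower, a log2 difference of -1.53 (SE 0.33, adjusted p = 0.005845). Mybpc3 (cardiac myosin-binding protein C) was at 5987, 4693 and 4336 in the isografts and 1095, 1893 and 2219.6 in the rejecting hearts. It was 2.98-fold lower, a log2 difference of -1.58 (SE 0.29, adjusted p = 0.002294). The slow myosin Myh7, the fetal form of the mouse ventricle, fell as well, 11.8-fold lower, a log2 difference of -3.56 (SE 0.82, adjusted p = 0.00829), with a fold of 7.27 without rejecting heart 1, 7.44 without rejecting heart 2 and 30.6 without rejecting heart 3. In Myh6, Tnni3, Myl3, Tnnt2, Mybpc3 and Myh7 the rejecting hearts lay below the isografts without overlap. With the 2 groups fitted alone the adjusted p was 0.09012 for Myh6, 0.06736 for Tnni3, 0.07171 for Myl3, 0.05932 for Tnnt2 and 0.09842 for Myh7, so that none of the 5 was called in that smaller fit.

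Of 18 genes of calcium handling and contraction control 7 fell and 1 rose (median -1.05); none rose when any array but rejecting heart 3 was left out. Atp2a2, the SERCA2 pump that refills the sarcoplasmic reticulum, was at 2535, 3045 and 2438 in the isografts and 130.1, 223 and 1129 in the rejecting hearts. It was 8.31-fold lower, a log2 difference of -3.05 (SE 0.59, adjusted p = 0.003434), and its fold was 5.3 without rejecting heart 1 and 15.6 without rejecting heart 3. Hrc, a calcium-binding protein of the same store, fell in all 3 hearts alike, at 601, 776 and 701 in the isografts and 119.7, 100 and 146 in the rejecting hearts. It was 5.72-fold lower, a log2 difference of -2.52 (SE 0.23, adjusted p = 4.172e-05). Casq2, the store's main calcium buffer, was 2.79-fold lower, a log2 difference of -1.48 (SE 0.29, adjusted p = 0.00357). The release channel Ryr2, at 555, 609 and 634 in the isografts and 42.1, 85.6 and 363 in the rejecting hearts, was 5.47-fold lower, a log2 difference of -2.45 (SE 0.61, adjusted p = 0.01309). Its fold was 3.39 without rejecting heart 1 and 9.97 without rejecting heart 3, and its adjusted p was 0.05631 without rejecting heart 1 and 0.05248 without rejecting heart 2. Of 24 ion channels, pumps and gap junction genes 10 fell and 1 rose (median -0.62); none rose without isograft 2 or rejecting heart 1. They included the subunits of the ATP-sensitive potassium channel. Kcnj8 was at 116, 143 and 123 in the isografts and 5, 9.3 and 25.5 in the rejecting hearts. It was 8.7-fold lower, a log2 difference of -3.12 (SE 0.36, adjusted p = 0.0001348). Kcnj11 was at 121, 139.5 and 172 in the isografts and 20.7, 50.1 and 16.2 in the rejecting hearts. It was 5.57-fold lower, a log2 difference of -2.48 (SE 0.52, adjusted p = 0.00491). The regulatory subunit Abcc9 was 5.32-fold lower, a log2 difference of -2.41 (SE 0.39, adjusted p = 0.001228). Gja1, the gap junction protein connexin 43, was 2.35-fold lower, a log2 difference of -1.23 (SE 0.22, adjusted p = 0.001932). Ryr2 was not called with the 2 groups alone (adjusted p = 0.08375), nor Kcnj11 within the second accession run (0.07553).

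Among 21 cardiac transcription factors 7 fell and none rose (median -0.66), but 1 rose without rejecting heart 2. Smyd1, a methyltransferase of muscle that serves myosin assembly and was counted here, was at 586, 566 and 529.7 in the isografts and 4.6, 6.8 and 124 in the rejecting hearts. It was 22.7-fold lower, a log2 difference of -4.5 (SE 0.76, adjusted p = 0.001521), and its fold was 50.9 without rejecting heart 3. Mef2c, a factor of muscle genes, was at 80.4, 48.2 and 70.9 in the isografts and 13.7, 8 and 10.9 in the rejecting hearts. It was 5.49-fold lower, a log2 difference of -2.46 (SE 0.38, adjusted p = 0.0009938); with the floor at the median of all values its adjusted p was 0.06844. The homeodomain protein Hopx was at 638, 1284 and 805 in the isografts and 155, 161 and 356 in the rejecting hearts. It was 4.21-fold lower, a log2 difference of -2.07 (SE 0.42, adjusted p = 0.004239). Gata4 was not called, at 182, 168 and 249.7 in the isografts and 166, 179 and 163 in the rejecting hearts and an adjusted p of 0.5249. The natriuretic peptides, which stressed heart muscle makes and releases, were not called either. Nppa was at 2855, 523 and 1468 in the isografts and 588, 869.7 and 1460.3 in the rejecting hearts (log2 difference -0.52, adjusted p = 0.569) and Nppb at 4459, 721 and 2468 in the isografts and 1133, 1956 and 4074 in the rejecting hearts (log2 difference 0.06, adjusted p = 0.9768). The 3 isografts of both genes spanned more than the rejecting hearts did.

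Genes of fatty acid oxidation had the lowest median of the 47 groups, -1.85, with 23 of 32 lower and none higher. Without rejecting heart 3, 1 was called higher. Hadh, an enzyme of the oxidation spiral, was at 664, 1023 and 804 in the isografts and 103, 110 and 103 in the rejecting hearts. It was 7.76-fold lower, a log2 difference of -2.96 (SE 0.34, adjusted p = 0.0001348), with almost equal signals in the 3 rejecting hearts. Acadm, the medium-chain dehydrogenase of the spiral's opening step, was at 2449, 2679 and 1889 in the isografts and 233, 224 and 577 in the rejecting hearts. It was 7.44-fold lower, a log2 difference of -2.9 (SE 0.39, adjusted p = 0.0004382). Ech1, which handles unsaturated chains, was 7.21-fold lower, a log2 difference of -2.85 (SE 0.36, adjusted p = 0.0002842), and Cpt2, which readies acyl groups inside the mitochondrion, 3.48-fold lower, a log2 difference of -1.8 (SE 0.23, adjusted p = 0.0003137). Transcripts for fatty acid supply were lower as well. Lpl, the lipase that frees fatty acids from lipoproteins, was at 3197, 2791 and 2968 in the isografts and 222, 244 and 682 in the rejecting hearts. It was 8.94-fold lower, a log2 difference of -3.16 (SE 0.4, adjusted p = 0.0002954). The uptake receptor Cd36 was 5.67-fold lower, a log2 difference of -2.5 (SE 0.45, adjusted p = 0.002168). In the tricarboxylic acid cycle 17 of 23 genes fell and none rose (median -1.32). Idh2, the mitochondrial isocitrate dehydrogenase that makes NADPH, was at 1951, 2041 and 1679 in the isografts and 86.1, 89 and 214 in the rejecting hearts. It was 16-fold lower, a log2 difference of -4 (SE 0.4, adjusted p = 5.303e-05). The fumarase Fh1 was at 986, 901 and 719 in the isografts and 166, 187 and 449 in the rejecting hearts. It was 3.58-fold lower, a log2 difference of -1.84 (SE 0.32, adjusted p = 0.001868).

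Of 62 genes of the respiratory chain and ATP synthase 47 fell and none rose (median -1.37), but 2 rose without rejecting heart 3. Cox7a1, the muscle form of a cytochrome oxidase subunit, was at 979, 1179 and 626 in the isografts and 16.1, 28.3 and 256 in the rejecting hearts. It was 18.4-fold lower, a log2 difference of -4.2 (SE 0.74, adjusted p = 0.001864), and its fold was 10.5 without rejecting heart 1 and 42 without rejecting heart 3. Ndufb8, of complex I, was at 1974, 2139 and 1707 in the isografts and 306, 421 and 755 in the rejecting hearts. It was 4.2-fold lower, a log2 difference of -2.07 (SE 0.31, adjusted p = 0.0008097). Uqcrc1, of complex III, was 2.5-fold lower, a log2 difference of -1.32 (SE 0.21, adjusted p = 0.001228). In 53 of the 62 genes rejecting heart 3 was the highest of the rejecting hearts. Ckm, the muscle creatine kinase, was at 279, 212 and 170.3 in the isografts and 7.5, 11.9 and 48 in the rejecting hearts. It was 11.7-fold lower, a log2 difference of -3.55 (SE 0.52, adjusted p = 0.0006958), and its fold was 18.9 without rejecting heart 3. Myoglobin (Mb) was at 7870, 5809 and 4707 in the isografts and 363, 473 and 2205 in the rejecting hearts. It was 8.28-fold lower, a log2 difference of -3.05 (SE 0.51, adjusted p = 0.001382), and its fold was 14.5 without rejecting heart 3. They belong to 20 genes of energy transfer, of which 8 fell and 2 rose (median -0.85); 1 rose without isograft 1, isograft 3, rejecting heart 1 or rejecting heart 2. Gatm, the first enzyme of creatine synthesis, rose, at 82.3, 93.7 and 75.7 in the isografts and 314, 430.2 and 354 in the rejecting hearts. It was 4.35-fold higher, a log2 difference of 2.12 (SE 0.24, adjusted p = 0.000121), without overlap. Among 21 genes of amino acid and ketone breakdown 13 fell and 1 rose (median -1.10), and 8 fell without isograft 2 or rejecting heart 2. None rose without isograft 1, isograft 2, rejecting heart 1 or rejecting heart 2. Ivd, of leucine breakdown, was at 144, 189 and 176 in the isografts and 37.8, 50.2 and 47.5 in the rejecting hearts. It was 3.75-fold lower, a log2 difference of -1.91 (SE 0.21, adjusted p = 0.0001056). Oxct1, which lets the heart burn ketone bodies, was 3.68-fold lower, a log2 difference of -1.88 (SE 0.32, adjusted p = 0.001445).

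Genes of hypoxia and glucose use, counted as 1 group, were split, with 10 of 33 higher and 9 lower (median 0.30). Several proteins of glucose use have a muscle form and another form on the array. The general glucose transporter Slc2a1 (GLUT1) was at 9.8, 21.9 and 24.1 in the isografts and 154, 201 and 145 in the rejecting hearts, 9.18-fold higher, a log2 difference of 3.2 (SE 0.6, adjusted p = 0.002763), while the insulin-responsive transporter of muscle and fat, Slc2a4 (GLUT4), was at 281, 369 and 403 in the isografts and 16.7, 19.4 and 91.1 in the rejecting hearts. It was 11.2-fold lower, a log2 difference of -3.49 (SE 0.58, adjusted p = 0.001382), and its fold was 19.3 without rejecting heart 3. The general phosphoglycerate mutase Pgam1 was at 148, 245 and 237 in the isografts and 813, 904 and 917 in the rejecting hearts. It was 4.28-fold higher, a log2 difference of 2.1 (SE 0.29, adjusted p = 0.0004544). Its muscle form Pgam2 was at 818, 528 and 825 in the isografts and 5.8, 32.1 and 311 in the rejecting hearts. It was 14.8-fold lower, a log2 difference of -3.89 (SE 0.83, adjusted p = 0.005664), and its fold was 7.1 without rejecting heart 1 and 37.7 without rejecting heart 3. The platelet-type phosphofructokinase Pfkp was at 86.6, 39.8 and 50.3 in the isografts and 146, 188 and 307 in the rejecting hearts. It was 3.65-fold higher, a log2 difference of 1.87 (SE 0.34, adjusted p = 0.002167). The muscle type Pfkm was at 1312, 1198 and 1008 in the isografts and 129, 124 and 237 in the rejecting hearts. It was 7.49-fold lower, a log2 difference of -2.91 (SE 0.38, adjusted p = 0.0003767). In each of these 3 pairs the form named for general or blood cell use rose and the muscle form fell, without overlap between groups. With the 2 groups alone the adjusted p of Pgam2 was 0.07951. Aldoc, an aldolase, rose, 5.01-fold higher, a log2 difference of 2.32 (SE 0.45, adjusted p = 0.003175), and the muscle enolase Eno3 fell, 5.66-fold lower, a log2 difference of -2.5 (SE 0.43, adjusted p = 0.001752), with a fold of 8.92 without rejecting heart 3. Hif1a, the oxygen-regulated factor that raises many genes of glycolysis, was at 1097, 808 and 1092 in the isografts and 2663, 2207 and 1801 in the rejecting hearts. It was 2.22-fold higher, a log2 difference of 1.15 (SE 0.25, adjusted p = 0.006788). Ldha did not pass the test, at 2688, 1533 and 1856 in the isografts and 2849, 2871 and 3029.7 in the rejecting hearts and an adjusted p of 0.1381.

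Endothelial genes fell in 12 of 33 cases and rose in none (median -0.74). The angiopoietin receptor Tek and its relative Tie1 were at 92.6, 86.5 and 128 in the isografts and 25.2, 23.1 and 33.6 in the rejecting hearts for Tek and at 146, 144 and 162 in the isografts and 42.6, 43.4 and 37.1 in the rejecting hearts for Tie1. Tek was 3.74-fold lower, a log2 difference of -1.9 (SE 0.28, adjusted p = 0.000679), and Tie1 was 3.67-fold lower, a log2 difference of -1.88 (SE 0.21, adjusted p = 0.0001056). Vwf, the adhesive protein that endothelium stores and secretes, was at 244, 191 and 195 in the isografts and 49.7, 70.6 and 34.3 in the rejecting hearts. It was 4.23-fold lower, a log2 difference of -2.08 (SE 0.46, adjusted p = 0.007194). The water channel Aqp1 was at 198, 552 and 321 in the isografts and 28.3, 7.3 and 28.6 in the rejecting hearts. It was 15.8-fold lower, a log2 difference of -3.98 (SE 0.56, adjusted p = 0.0005708). Kdr, the main receptor for VEGF, was 1.99-fold lower, a log2 difference of -0.99 (SE 0.23, adjusted p = 0.009144), with an adjusted p of 0.0502 within the second accession run. Pan-endothelial junction genes were not called, Pecam1 at 107, 74.5 and 66.5 in the isografts and 79.5, 77.9 and 40.9 in the rejecting hearts and Cdh5 at 238, 182 and 684 in the isografts and 176, 153 and 177 in the rejecting hearts, where isograft 3 stood apart. Of 20 smooth muscle and pericyte genes 5 fell and 1 rose (median -0.12). None rose without isograft 1, isograft 2 or rejecting heart 1, and 2 rose without isograft 3 or rejecting heart 3. Rgs5 and Notch3, of pericytes and arterial smooth muscle, were at 209, 193 and 170.1 in the isografts and 42.7, 40.6 and 49.2 in the rejecting hearts for Rgs5 and at 146, 149.6 and 178 in the isografts and 29.9, 30 and 52.1 in the rejecting hearts for Notch3. Rgs5 was 4.32-fold lower, a log2 difference of -2.11 (SE 0.24, adjusted p = 0.000115), and Notch3 was 4.36-fold lower, a log2 difference of -2.12 (SE 0.24, adjusted p = 0.000115). Acta2, smooth muscle actin, was not called, at 449, 215 and 388 in the isografts and 1043, 649 and 169 in the rejecting hearts, where rejecting heart 1 was highest and rejecting heart 3 the lowest of all 6.

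Coagulation and fibrinolysis genes moved both ways, 7 of 24 higher and 5 lower (median 0.15). Plaur, the urokinase receptor, was at 10.2, 9 and 5.1 in the isografts and 151, 154 and 145 in the rejecting hearts. It was at least 13.6-fold higher, a log2 difference of 3.77 (SE 0.42, adjusted p = 0.0001158). Procr, the protein C receptor, was at 20.3, 28.6 and 40.6 in the isografts and 197, 252 and 141 in the rejecting hearts. It was 6.68-fold higher, a log2 difference of 2.74 (SE 0.38, adjusted p = 0.0004767). F10, coagulation factor X, was 3.93-fold higher, a log2 difference of 1.97 (SE 0.28, adjusted p = 0.0005241). Thrombomodulin (Thbd), the endothelial protein that turns thrombin to activate protein C, fell, at 99.7, 93.6 and 86.7 in the isografts and 53.7, 40.8 and 43.2 in the rejecting hearts. It was 2.05-fold lower, a log2 difference of -1.03 (SE 0.21, adjusted p = 0.004647). Gas6, a vitamin K-dependent ligand of TAM receptors, was at 444, 402 and 468 in the isografts and 97.1, 70.1 and 53.3 in the rejecting hearts. It was 6.13-fold lower, a log2 difference of -2.61 (SE 0.25, adjusted p = 4.172e-05). Of 19 complement genes 3 rose and 1 fell (median 0.01). C1qb, of the complex that starts the classical pathway, was 2.79-fold higher, a log2 difference of 1.48 (SE 0.34, adjusted p = 0.007996), and properdin (Cfp) was at 22.5, 28.5 and 53.4 in the isografts and 241, 250.4 and 229.9 in the rejecting hearts. It was 7.4-fold higher, a log2 difference of 2.89 (SE 0.38, adjusted p = 0.0003767). The gene that fell was Cd59a, which guards host cells from the membrane attack complex, at 465, 561 and 343 in the isografts and 75.4, 106 and 109.5 in the rejecting hearts. It was 4.68-fold lower, a log2 difference of -2.23 (SE 0.21, adjusted p = 4.172e-05). Of 26 genes of leukocyte adhesion 10 rose and 1 fell (median 0.49; 2 fell without isograft 3 or rejecting heart 3), while Vcam1, the endothelial adhesion molecule, was not called at 163, 178 and 169 in the isografts and 169, 130.4 and 321 in the rejecting hearts.

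The matrix of the graft changed unevenly. Of 33 proteoglycan and elastic fibre genes 19 fell and 1 rose (median -0.96). Lum (lumican), a small proteoglycan that spaces collagen fibrils, was at 1154, 1019 and 1246 in the isografts and 134, 206 and 166 in the rejecting hearts. It was 6.83-fold lower, a log2 difference of -2.77 (SE 0.19, adjusted p = 7.237e-06). Ogn (osteoglycin) was at 424, 281 and 689 in the isografts and 19.2, 16.8 and 31.1 in the rejecting hearts. It was 20.1-fold lower, a log2 difference of -4.33 (SE 0.35, adjusted p = 2.209e-05). Dcn (decorin) was at 3758, 3976 and 3937 in the isografts and 1197, 822 and 539.5 in the rejecting hearts. It was 4.8-fold lower, a log2 difference of -2.26 (SE 0.27, adjusted p = 0.0001678). Elastin (Eln) was at 1369, 770.1 and 1155 in the isografts and 92.6, 99.5 and 85.2 in the rejecting hearts. It was 11.6-fold lower, a log2 difference of -3.53 (SE 0.31, adjusted p = 2.886e-05). Ltbp4, a protein of elastic fibres that binds latent TGF-beta, was at 1031, 695 and 1021 in the isografts and 112, 105 and 129 in the rejecting hearts. It was 7.84-fold lower, a log2 difference of -2.97 (SE 0.27, adjusted p = 3.611e-05). These 5 genes fell in all 3 rejecting hearts, far below the lowest isograft. Of 36 fibroblast and collagen genes 10 fell and 3 rose (median -0.45). Sparcl1, an anti-adhesive matrix protein of vessels and stroma, was at 634, 463 and 603 in the isografts and 77, 59.5 and 62.9 in the rejecting hearts. It was 8.5-fold lower, a log2 difference of -3.09 (SE 0.26, adjusted p = 2.886e-05). Tcf21, a transcription factor of cardiac fibroblasts, was at 81.2, 95.2 and 88.3 in the isografts and 27.2, 7.6 and 13.9 in the rejecting hearts. It was 5.48-fold lower, a log2 difference of -2.45 (SE 0.37, adjusted p = 0.0007915). Postn (periostin), a protein of activated fibroblasts, was at 3322, 1033 and 2467 in the isografts and 118, 104 and 432 in the rejecting hearts. It was 11.7-fold lower, a log2 difference of -3.55 (SE 0.54, adjusted p = 0.0008756), and its fold was 18.4 without rejecting heart 3.

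The main fibrillar collagens were not called. Col1a1 was at 3651, 1732 and 3736 in the isografts and 4828, 3053 and 857 in the rejecting hearts (log2 difference -0.3, adjusted p = 0.781), Col1a2 at 1794, 901 and 2118 in the isografts and 2687, 1905 and 369 in the rejecting hearts (log2 difference -0.29, adjusted p = 0.8156), and Col3a1 at 1840.1, 1201 and 2513 in the isografts and 1430.2, 1271 and 616 in the rejecting hearts (log2 difference -0.77, adjusted p = 0.1583). Rejecting hearts 1 and 2 lay among the isografts for Col1a1 or above them, and rejecting heart 3 below. Tgfbi, a collagen-binding protein that macrophages also make and that belongs to none of the groups, rose, at 71.2, 83.5 and 229 in the isografts and 942, 1134 and 808 in the rejecting hearts. It was 8.59-fold higher, a log2 difference of 3.1 (SE 0.48, adjusted p = 0.0008864). Without isograft 2, isograft 3, rejecting heart 1 or rejecting heart 2, 1 gene of the fibroblast and collagen group was called higher in place of 3. Of 25 matrix proteases and inhibitors 3 rose and 2 fell, and leaving out 1 array gave 1 higher without isograft 2 or rejecting heart 2, 6 higher without rejecting heart 3, 1 lower without rejecting heart 3 or any 1 isograft, and none lower without rejecting heart 2. Igf2, the fetal growth factor, was at 495, 534 and 799 in the isografts and 98.8, 80.2 and 88.3 in the rejecting hearts. It was 6.7-fold lower, a log2 difference of -2.74 (SE 0.2, adjusted p = 1.159e-05), without overlap.

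Of 38 antioxidant, heme and metal genes 13 fell and 4 rose (median -0.23), and 7 rose without rejecting heart 3. Txn1, the cytosolic thioredoxin, was at 719, 594 and 452 in the isografts and 2004, 1869 and 1948 in the rejecting hearts. It was 3.36-fold higher, a log2 difference of 1.75 (SE 0.24, adjusted p = 0.000443). Its reductase Txnrd1 was 2.26-fold higher, a log2 difference of 1.17 (SE 0.2, adjusted p = 0.001417). Prdx3, the mitochondrial peroxiredoxin, was at 975, 888 and 746 in the isografts and 215, 267 and 367 in the rejecting hearts. It was 3.13-fold lower, a log2 difference of -1.65 (SE 0.21, adjusted p = 0.0002954). The glutathione transferase Gsta4 was 5.28-fold lower, a log2 difference of -2.4 (SE 0.29, adjusted p = 0.0002285). Hmox1, the inducible heme oxygenase, was at 684, 461 and 889 in the isografts and 3409, 4204 and 1049 in the rejecting hearts. It was 3.77-fold higher, a log2 difference of 1.91 (SE 0.44, adjusted p = 0.008469), and its fold was 5.78 without rejecting heart 3. With the 2 groups alone its adjusted p was 0.07807. Of 38 genes of protein folding 7 rose and 1 fell (median 0.42), and 4 rose without rejecting heart 1. None fell without isograft 1, isograft 2, rejecting heart 1 or rejecting heart 2, and 2 fell without rejecting heart 3. Manf, a protein of endoplasmic reticulum stress, was at 153, 106 and 142 in the isografts and 311, 319 and 489 in the rejecting hearts. It was 2.77-fold higher, a log2 difference of 1.47 (SE 0.34, adjusted p = 0.009506); with beta-actin's ratio in the model the adjusted p was 0.05119. Of 31 apoptosis genes 6 rose and none fell (median 0.26), but 1 fell without rejecting heart 3. Casp1, the caspase that matures interleukin 1 beta, was at 23.5, 28.8 and 29.8 in the isografts and 103, 154 and 203 in the rejecting hearts. It was 5.42-fold higher, a log2 difference of 2.44 (SE 0.34, adjusted p = 0.0005241).

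The remaining groups are given by their counts, to be read against 8.07% of all genes higher and 9.48% lower. Ribosomal protein genes had 1 of 28 higher and 1 lower (median 0.09), dendritic cell genes 4 of 15 higher, mast cell genes 1 of 11 higher, and adipocyte genes 4 of 14 lower. Nerve and Schwann cell genes had 2 of 16 lower, circadian clock genes 1 of 16 higher and 3 lower, and cholesterol and lipid synthesis 6 of 30 higher and 1 lower, with 3 higher without isograft 1. By limma no gene was called among 8 erythroid and platelet genes or 21 of skeletal muscle. At an unadjusted p under 0.05 there was 1 in each, but the share of all genes at that p was not counted. Nr1d2, a repressor of the clock, was at 189.6, 216 and 122 in the isografts and 24.4, 32.2 and 41.7 in the rejecting hearts. It was 5.35-fold lower, a log2 difference of -2.42 (SE 0.35, adjusted p = 0.0006351). The clock output factor Tef was at 348, 442 and 208 in the isografts and 112, 89.3 and 96.8 in the rejecting hearts. It was 3.21-fold lower, a log2 difference of -1.68 (SE 0.28, adjusted p = 0.001281). The hour at which the grafts were taken is not given. Small counts moved when 1 array was left out. Without rejecting heart 3 or isograft 2, 2 ribosomal protein genes were higher. Only 1 nerve and Schwann cell gene was lower without isograft 1 or any 1 rejecting heart. No clock gene was higher without isograft 2, isograft 3 or rejecting heart 2. Without rejecting heart 3, 1 erythroid and platelet gene and 1 nerve and Schwann cell gene were higher. Leaving out isograft 3 gave 1 skeletal muscle gene lower.

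Rejecting heart 3 differed from hearts 1 and 2 in a way that ran through whole groups. Against the isograft mean, the sarcomere median was -2.18, -1.62 and -0.73 in rejecting hearts 1, 2 and 3, and that of fatty acid oxidation -2.08, -1.97 and -1.09. T cell genes were also highest in heart 3, with medians of 1.01, 1.66 and 2.99, as were cytotoxic and NK cell genes with 0.89, 1.18 and 2.33. Stromal genes were lowest there: fibroblast and collagen genes had 0.14, -0.15 and -1.47, and proteoglycan and elastic fibre genes -0.60, -0.91 and -1.60. Heart 3 thus kept more of the muscle transcripts, held more of the T cell transcripts and held fewer of the stromal ones. By gene, heart 3 was above the mean of hearts 1 and 2 in 23 of 29 sarcomere genes, in 40 of 51 T cell, cytotoxic and NK cell genes, and in 10 of 69 stromal genes. The same count was not made over all genes. By another measure, the extreme of the 3 hearts, heart 3 was the highest rejecting heart in 2522 of all 8251 genes and the lowest in 3325. Over probe sets, its log2 signals correlated with those of heart 1 at 0.872 and of heart 2 at 0.917, against 0.953 between hearts 1 and 2. The isografts correlated with each other at 0.939 to 0.956. These are descriptions of 3 hearts, and their differences were not tested.

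**Figure D2:**
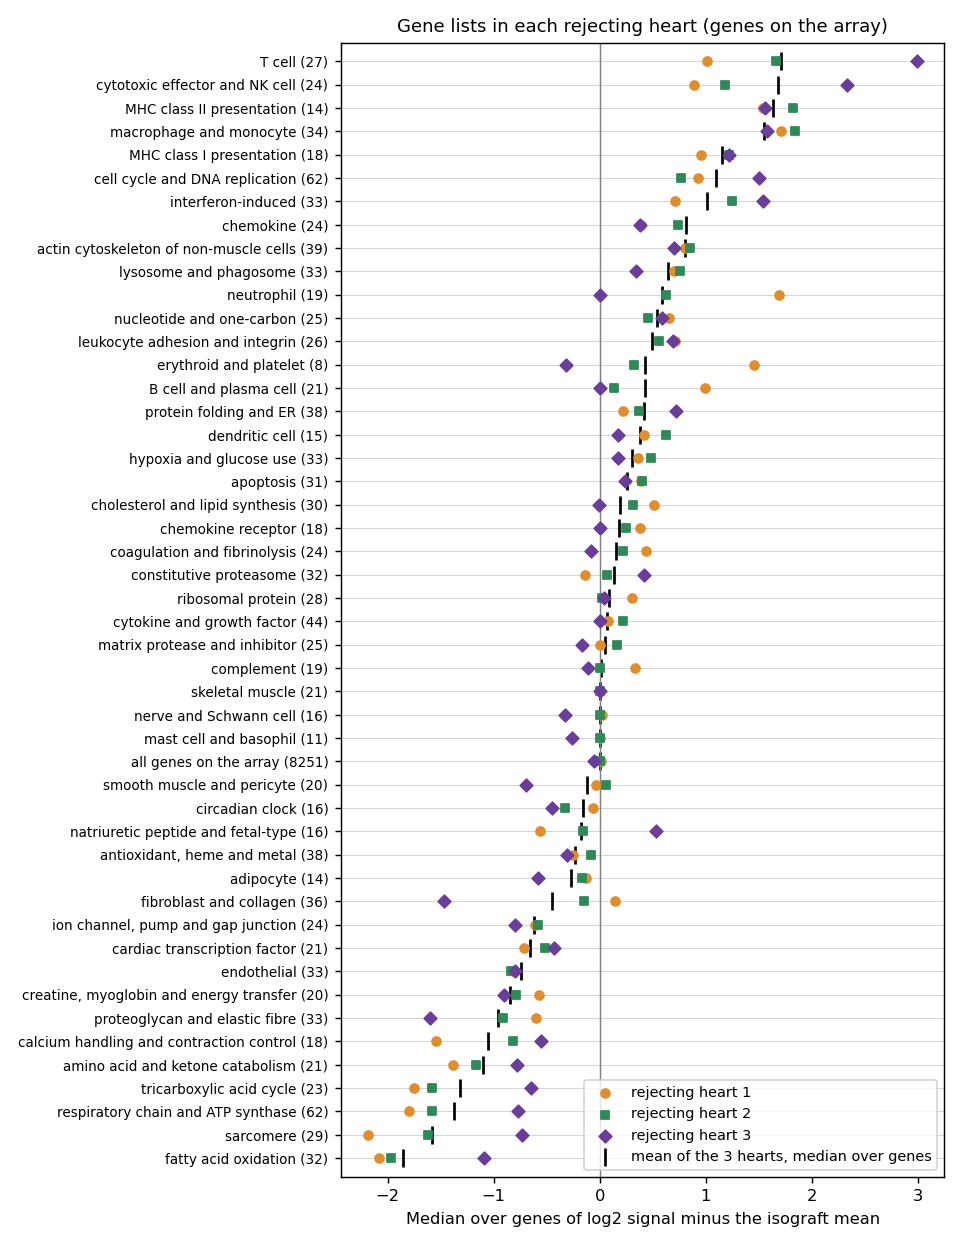
Median log2 difference from the isograft mean over the genes of each of 47 groups and over all 8251 genes (horizontal axis), in rejecting heart 1 (orange circles), 2 (green squares) and 3 (purple diamonds); black bars are medians of the 3-heart mean, and the number of genes on the array is in parentheses. Groups range from T cell genes at 1.71 to fatty acid oxidation at -1.85, and heart 3 lies far to the right for T cell genes and far to the left for fibroblast and collagen genes.

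**Figure D3:**
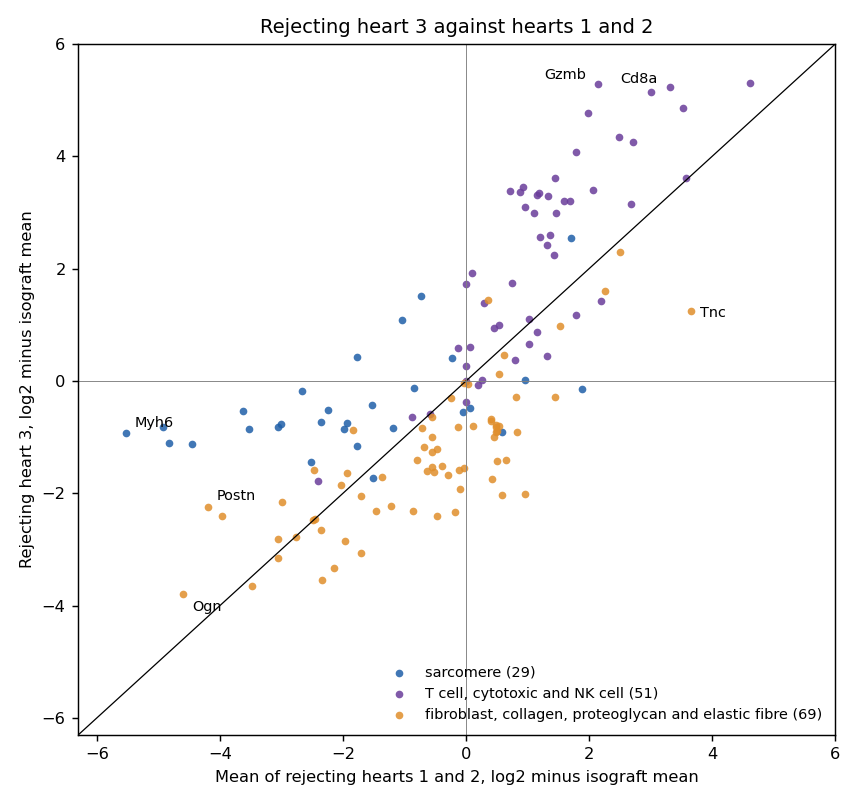
Each point is a gene: its log2 difference from the isograft mean in rejecting heart 3 (vertical axis) against the mean of that difference in rejecting hearts 1 and 2 (horizontal axis), for 29 sarcomere genes (blue), 51 T cell, cytotoxic and NK cell genes (purple) and 69 stromal genes (orange); the diagonal marks equal differences. Most blue and purple points lie above the diagonal (23 and 40 genes) and most orange points below it (55 genes).

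Replicate 3 of each day 7 group also came from another run of sample accessions than replicates 1 and 2, so heart 3 was compared with isograft 3 alone as well. Within that first run, 1 array against 1 with no test, the sarcomere median was -0.46, fatty acid oxidation -1.06, T cell genes 1.97, interferon-induced genes 1.47 and fibroblast and collagen genes -1.83. Within the second run, 2 arrays against 2, the same medians were -2.16, -1.99, 1.44, 1.14 and 0.00. Every one of these but the last had the same sign in both runs. Isograft 3 was itself the highest isograft in the summed T cell markers and the lowest in the summed cardiomyocyte markers. The part of the run in what set heart 3 apart was not tested.

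The rejecting hearts were then compared with the tolerizing hearts of the same donor strain. Of the 9659 probe sets 146 (1.51%) were called, 55 higher (0.569%) and 91 lower (0.942%) in the rejecting hearts, and by gene 123 of 8251 (1.49%), 42 higher (0.509%) and 81 lower (0.982%). Over all 10395 probe sets tested, the count was 147 (1.41%), but it was 771 without rejecting heart 3, 73 without rejecting heart 1, 50 without rejecting heart 2, 58 without tolerizing heart 3 and 36 without tolerizing heart 2. Of the 123 genes 27 (7 higher, 20 lower) kept the call whichever of the 6 arrays was left out. Tolerizing against isograft hearts, which shares arrays with both other comparisons, gave 175 probe sets (1.81%), 97 higher (1%) and 78 lower (0.808%).

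Among the genes kept were the myeloid protease Adam8, at 12.3, 7.9 and 53.5 in the tolerizing hearts and 779.7, 803 and 194 in the rejecting hearts (log2 difference 4.68, adjusted p = 0.00443), and the urokinase receptor Plaur, at 8.6, 8.6 and 40.6 and 151, 154 and 145 (log2 difference 3.14, adjusted p = 0.002567). Arg1, at 77.1, 32.8 and 106 in the tolerizing hearts, passed too (log2 difference 4.56, adjusted p = 0.02201), but its adjusted p was 0.1078 without rejecting heart 1, 0.1038 without rejecting heart 2, 0.1267 without tolerizing heart 2 and 0.05138 without tolerizing heart 3. All 3 tolerizing hearts lay below all 3 rejecting hearts in these genes. Stromal genes made up 16 of the lower calls, 6 of 36 fibroblast and collagen and 10 of 33 proteoglycan and elastic fibre genes. Of the 16 genes 10, 5 in each group, kept the call whichever array was left out; Pcolce, Mfap4, Mfap5, Mgp, Lama2 and Sdc2 did not. Lum was at 1263, 971 and 990.2 in the tolerizing hearts, close to the isografts, and its difference was -2.68 (adjusted p = 2.198e-05). Sparcl1 was at 477, 679 and 792 (log2 difference -3.27, adjusted p = 4.35e-05), Ogn at 288, 201 and 227 (-3.45, adjusted p = 0.0004367) and Eln at 849.6, 456 and 749 (-2.84, adjusted p = 0.000654). The pericyte genes Rgs5 and Notch3 were at 173, 185 and 134 and at 101.3, 147 and 124, with differences of -1.88 and -1.77 (adjusted p = 0.001558 and 0.002567). The calls of Lum, Sparcl1, Ogn, Eln, Rgs5 and Notch3 held whichever array was left out.

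By limma 0 of 33 interferon-induced genes were called between rejecting and tolerizing hearts, against 1.49% of all 8251 genes. Counts of 0 in groups of this size lie near that share. At an unadjusted p under 0.05 there were 2 interferon-induced genes, both lower in the rejecting hearts. The share of all genes at that unadjusted p was not counted. The unadjusted counts here, for this and the other groups, therefore have no background and are not read as group results. Igtp was at 1632, 1943 and 1705 (log2 difference -0.28, adjusted p = 0.7528), Irf1 at 798, 620.3 and 588 (0.21, adjusted p = 0.7784) and Psmb8, of antigen presentation, at 1450.4, 1075 and 1001 (0.13, adjusted p = 0.8765). Of 24 cytotoxic and NK cell genes 0 were called, with 7 at an unadjusted p under 0.05, all higher. Gzmb was at 126, 168 and 166 (1.66, adjusted p = 0.2203), between the isografts and the rejecting hearts, and Cd8b1 was at 229, 105 and 86.3 (0.57, adjusted p = 0.7605). Of 29 sarcomere genes 0 were called, with 20 at an unadjusted p under 0.05, 19 of them lower. Myh6 was at 1991, 3722 and 2295 in the tolerizing hearts (-3.29, adjusted p = 0.08964), and rejecting heart 3, at 2212, lay among them. Myoglobin (Mb) did pass (-2.33, adjusted p = 0.03885), with 3122, 4332 and 3565 in the tolerizing hearts, and kept the call without rejecting heart 3 alone, with adjusted p-values of 0.06337 to 0.1819 without any other of the 6 arrays. A gene that misses the threshold with 3 arrays a group is not thereby shown to be equal.

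**Figure D4:**
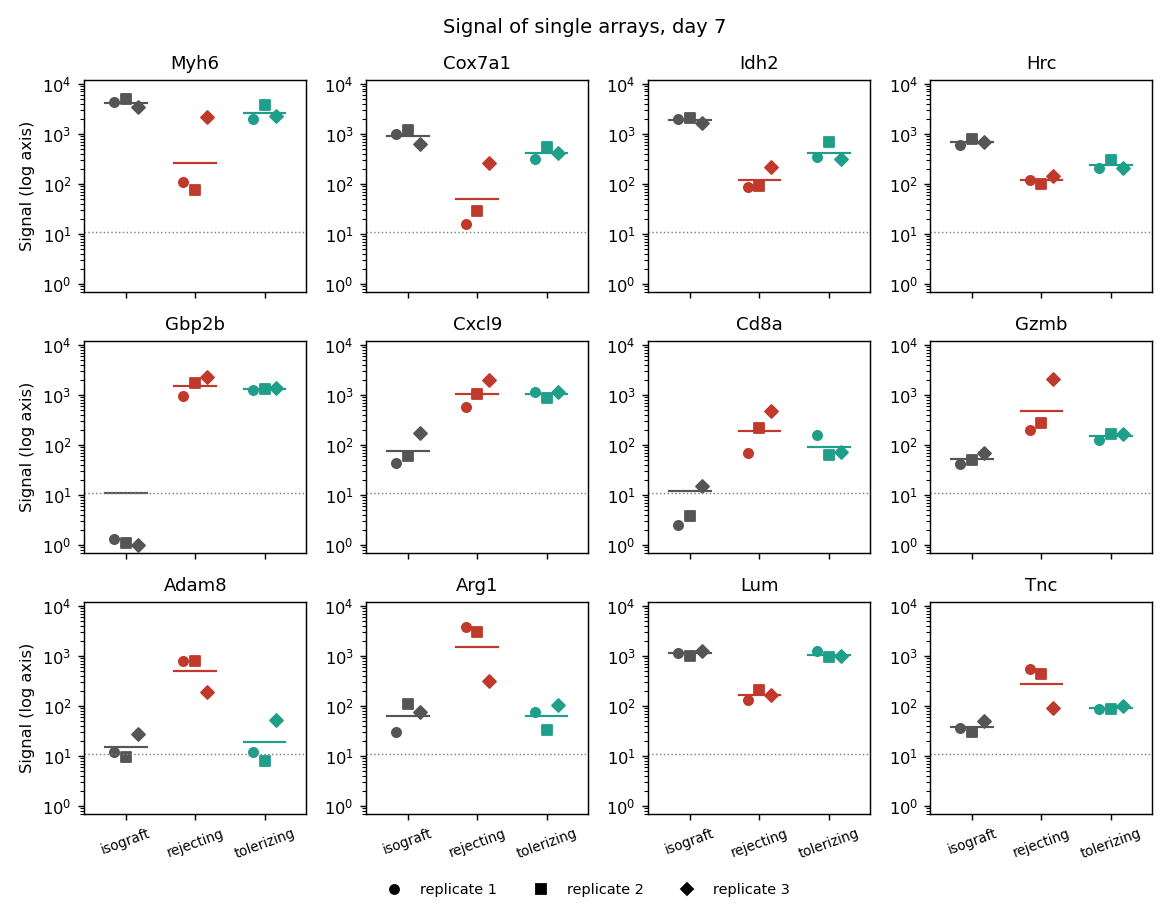
Signal of 12 genes on each day 7 array (vertical axis, log scale) in isografts (grey), rejecting hearts (red) and tolerizing hearts (green); marker shapes give the replicate number, horizontal bars the group mean of log2 signals after the floor, and the dotted line the floor of 11. Myh6 and Arg1 show rejecting heart 3 apart from hearts 1 and 2, Gbp2b and Cxcl9 overlap between rejecting and tolerizing hearts, and Lum and Adam8 separate these groups.

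Of the 1448 called genes 957 belonged to none of the 47 groups. Among the largest rises outside them was AW112010, an interferon-inducible transcript of immune cells, at 243, 283 and 262 in the isografts and 1726, 2617 and 2583 in the rejecting hearts. It was 8.66-fold higher, a log2 difference of 3.11 (SE 0.3, adjusted p = 4.836e-05). Napsa, an aspartic protease, lay under the floor in all isografts, at 4.8, 5.3 and 4.9, and was at 87.1, 96.7 and 185 in the rejecting hearts, at least 10.5-fold higher, a log2 difference of 3.4 (SE 0.49, adjusted p = 0.0006354). Acod1, the macrophage enzyme that makes itaconate, was at 15.1, 28.8 and 23.7 in the isografts and 93.9, 265 and 398 in the rejecting hearts. It was 9.87-fold higher, a log2 difference of 3.3 (SE 0.53, adjusted p = 0.001127), and its fold was 14.9 without rejecting heart 1. Crct1 was at 94.6, 179.7 and 1 in the rejecting hearts against 10, 1.6 and 2.3, so that its call came from hearts 1 and 2: it was at least 5.2-fold higher, a log2 difference of 2.38 (SE 0.7, adjusted p = 0.0305), its fold was 2.93 without rejecting heart 2 and 11.9 without rejecting heart 3, and its adjusted p was 0.07998 without isograft 1, 0.07753 without isograft 2, 0.07433 without isograft 3, 0.1143 without rejecting heart 1 and 0.1299 without rejecting heart 2. It also lost the call with the 2 groups alone (0.1929), a floor of 5 (0.06934), log2 of the signal plus 16 (0.05541) and no filter (0.08121). Among the falls, Art3, an ADP-ribosyltransferase of muscle, was at 499, 615 and 424 in the isografts and 22, 34.2 and 228 in the rejecting hearts. It was 9.11-fold lower, a log2 difference of -3.19 (SE 0.63, adjusted p = 0.003792), and its fold was 5.73 without rejecting heart 1 and 18.5 without rejecting heart 3. With the 2 groups alone Art3 had an adjusted p of 0.05845. Fbp2, the muscle fructose bisphosphatase, was at 44.6, 107 and 58 in the isografts and under the floor in all rejecting hearts, at least 5.93-fold lower, a log2 difference of -2.57 (SE 0.32, adjusted p = 0.0002842); the adjusted p was 0.05045 with the floor at the median of all values. Every isograft was at or under the floor and every rejecting heart above it in 74 probe sets, and the reverse held in 60.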

How the data were processed

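Total RNA of transplanted mouse hearts was measured on 14 MG-U74Av2 arrays in 5 groups; 9 arrays at day 7 are described here. The deposited values are signal intensity on a linear scale for 12488 probe sets. For the deposited values, software and scaling were not given in the sources used here, and scanner files were not used here. Trimmed by 2% at both ends, the deposited intensity averaged 100.06 to 100.07 per array, and no scaling was added. Signals under 11 were set to 11 and log2 was taken. The 66 control probe sets were left out, and the 10395 above 11 on at least 3 of 14 arrays were tested with limma 3.58.1 (R 4.3.3), in 1 fit of 5 groups with 9 residual degrees of freedom and an intensity trend, two-sided, with Benjamini-Hochberg adjustment over all 10395 and a threshold of 0.05. Every adjusted p is from that fit unless another setting or an array left out is named with it. The fit was tested on simulated data. The precision is limited by the number of arrays.

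Of the probe sets without controls 10833 had 1 gene symbol in the platform annotation, 396 several and 1193 none. Only those with 1 symbol were named, and the brightest over the 6 arrays stood for a gene. The members and the 47 gene groups were chosen with earlier results of these data known. Genes were named by rule: up to 12 largest rises and falls with every array above the floor and no overlap, the 8 brightest of those with a whole group at the floor, up to 4 per group of genes with the smallest p, the 8 widest within the rejecting hearts, genes with opposed probe sets, H2-Ea, and members of a gene group where it is described. Leaving out each array, other scalings, floors and filters, array weights, a fit of 2 groups alone, replicate and accession-run blocks and the beta-actin ratio were tried. Leaving out arrays for the gene groups, and for single genes against the tolerizing hearts, was added after the data were seen.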

Additional observations from a re-analysis of the deposited data

How the results depend on the processing

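Among the 10395 probe sets tested, 1842 were called (888 higher, 954 lower) between rejecting and isograft hearts. None of the alternatives run turned the direction of any of the 1448 called genes it tested; the higher floor tested 124 fewer and the members alone 4 fewer. The count stayed between 1452 and 2088 with quantile or median scaling, other floors or filters, no intensity trend, an accession-run block, the second run alone or the beta-actin ratio. Array weights gave 2948, with 1545 higher, in an estimate of the weights that did not converge. The 2 groups alone gave 1153, with 556 lower, and kept 164 of the 193 genes the rule names. Leaving out 1 array gave 1307 to 2168 calls, 617 to 1074 higher and 676 to 1094 lower; the most came without rejecting heart 3. Against the tolerizing hearts, leaving out 1 array gave 36 to 771 calls in place of 147. Day 7 arrays of the same replicate number shared that number and an accession run, and no other link was given. Their deviations from the group means correlated at -0.019, 0.117 and 0.152 for numbers 1, 2 and 3. Rejecting hearts 2 and 3 correlated best with the isograft of their own number, and rejecting heart 1 with isograft 2 (0.169). With the replicate number as a block 1991 probe sets were called, and 187 against the tolerizing hearts, and 192 of the 193 named genes stayed called. Group medians moved by more than the spread of the hearts in 20 of 47 groups within the first run and in 7 within the second, against 1 each under quantile and median scaling, neither of which shifted the median of all genes. With 1 strain per group, strain and rejection are not separable here, and signals near the floor of 11 give no order.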

Other observations

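For 4 genes, probe sets called in this comparison pointed in opposite directions, and each probe set is given here without setting its level against the other's. Lef1, a transcription factor of T cells and of Wnt signalling, had 1 probe set at 110.3, 126 and 147 in the isografts and 243, 278 and 201 in the rejecting hearts (log2 difference 0.91, adjusted p = 0.01413 by limma), and another at 32.0, 24.4 and 29.7 and at 7.1, 15.0 and 4.2 (log2 difference -1.23, adjusted p = 0.02779). Without isograft 1 neither was called (0.06219 and 0.0894); the first was also lost without rejecting heart 2 (0.06332), and the second without isograft 3, rejecting heart 1 or rejecting heart 3 (0.07121, 0.08473 and 0.06198). Sh3bgr, a gene of heart and skeletal muscle, had its brightest probe set lower (log2 difference -1.58, adjusted p = 0.03931), at 1547, 828 and 628 in the isografts and 148, 304 and 675 in the rejecting hearts, and a dim one higher (log2 difference 1.31, adjusted p = 0.03274). Both calls were lost without isograft 1, isograft 2, rejecting heart 1 or rejecting heart 2 (adjusted p of 0.07753 to 0.1689 for the first and 0.09269 to 0.1164 for the second). Atp5d, the delta subunit of ATP synthase, had 3 probe sets lower, with log2 differences of -0.93, -0.72 and -0.60, and 1 dim probe set higher, by 1.16, whose isografts were all under the floor. None of the 4 kept its call without isograft 2, isograft 3, rejecting heart 1 or rejecting heart 2 (adjusted p of 0.0523 to 0.1175); 3 were lost without isograft 1 and the dim one also without rejecting heart 3 (0.05636). Ttc39b had 1 probe set lower (log2 difference -1.05, adjusted p = 0.02311) and 1 higher (log2 difference 0.79, adjusted p = 0.04815). Both were lost without isograft 2, rejecting heart 2 or rejecting heart 3 (adjusted p of 0.05166 to 0.1586), the first also without isograft 3 (0.07445) and the second without isograft 1 (0.1659).

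Among the genes that every isograft held under the floor, A2m, alpha-2-macroglobulin, was at 9.3, 1.7 and 2.8 there and at 249, 147 and 4.3 in the rejecting hearts (at least 6.72-fold higher by limma, adjusted p = 0.02799), so rejecting heart 3 did not share the rise; the fold was 3.66 without rejecting heart 1 and 17.4 without rejecting heart 3. The call was lost without any isograft (adjusted p of 0.06959 to 0.07501), without rejecting heart 1 (0.1191) and without rejecting heart 2 (0.1169).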
